A study of Mus musculus with 18 samples.

Results

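The 10 libraries from arthritic mouse forepaws did not hold the same amount of inflammatory transcript, and the gradient among them is described here. Each of the 10, of 18 forepaw libraries in all, was given an inflammation score, the mean over Saa3, Mmp3, Cxcl5, Il1b and Ccl2 of log2(normalized count + 1). A normalized count is a read count divided by the library's size factor. The score and all other genes were then centred on the mean of their genotype, so that the slope of a gene on the score is its log2 change per 1 log2 unit of score among libraries of the same genotype. These libraries were selected on their labels and ordered by the measured values of these 5 genes, which were chosen by earlier results of the same data, so the values of the 5 genes are given as a description without a test.

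All mice were C57BL/6 and the tissue was the forepaw. The 5 WT arthritis and 5 Sema3b-/- arthritis libraries are the ones fitted, and 4 WT control and 4 Sema3b-/- control libraries give the background. All control titles begin with MI. Arthritis titles either begin with Joint (4 WT, 3 Sema3b-/-) or have RA after the animal number (1 WT, 2 Sema3b-/-), the title word below. The labels do not explain these words. Where arthritis values are set beside controls, arthritis and title word cannot be told apart. Sema3b-/- mice lack Sema3b, which encodes a secreted class 3 semaphorin that signals through neuropilins and plexins. The sources used here give no age, arthritis model, duration or paw score. A forepaw holds synovium, tendon, bone, cartilage, marrow, muscle and skin, and the labels do not say how the paws were trimmed. In such bulk RNA, fewer cells of a type and less RNA per cell cannot be told apart.

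In inflammatory arthritis the joint lining thickens, fibroblasts of the lining secrete cytokines, chemokines and matrix-degrading enzymes, and neutrophils and monocytes enter from blood. The 5 score genes stand for these steps. Saa3 (chr7:46711998-46715700, minus strand, mm10) encodes an acute-phase serum amyloid made locally by macrophages and fibroblasts. Mmp3 (chr9:7445822-7455975, plus strand) encodes stromelysin-1, a secreted matrix protease of synovial fibroblasts. Cxcl5 (chr5:90759360-90761624, plus strand) and Ccl2 (chr11:82035571-82037453, plus strand) encode chemokines that attract neutrophils and monocytes respectively. Il1b (chr2:129364570-129371139, minus strand) encodes the cytokine interleukin-1 beta.

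The genes shown next were picked through the score: 3 are score genes, and Cxcl2 had the lowest p along it outside them. The sequences before their start sites are given as a description. They are the 250 bases before the RefSeq start, on the coding strand, in build GRCm38.p6: Saa3 at chr7:46715677-46715926 (minus strand), Mmp3 at chr9:7445572-7445821 (plus), Il1b at chr2:129371140-129371389 (minus) and Cxcl2 at chr5:90903649-90903898 (plus). Capitals mark matches, on either strand, to GGG, 5 free bases and CC (an NF-kB type motif), TGANTCA (an AP-1 type motif) or TTNNGNAA (a C/EBP type motif); matches may overlap.
Saa3: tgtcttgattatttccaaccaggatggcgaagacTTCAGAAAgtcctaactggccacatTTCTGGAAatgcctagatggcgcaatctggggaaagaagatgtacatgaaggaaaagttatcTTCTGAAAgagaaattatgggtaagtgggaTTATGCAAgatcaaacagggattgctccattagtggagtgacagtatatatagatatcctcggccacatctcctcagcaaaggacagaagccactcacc
Mmp3: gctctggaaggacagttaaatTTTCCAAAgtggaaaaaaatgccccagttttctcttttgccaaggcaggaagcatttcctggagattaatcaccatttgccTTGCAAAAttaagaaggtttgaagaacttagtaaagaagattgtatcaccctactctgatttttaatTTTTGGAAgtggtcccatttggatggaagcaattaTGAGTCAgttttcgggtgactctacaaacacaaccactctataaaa
Il1b: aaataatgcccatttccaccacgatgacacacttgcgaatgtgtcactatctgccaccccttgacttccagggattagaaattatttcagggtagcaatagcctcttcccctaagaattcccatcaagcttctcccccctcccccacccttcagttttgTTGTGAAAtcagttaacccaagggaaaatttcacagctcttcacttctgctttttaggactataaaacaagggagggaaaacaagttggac
Cxcl2: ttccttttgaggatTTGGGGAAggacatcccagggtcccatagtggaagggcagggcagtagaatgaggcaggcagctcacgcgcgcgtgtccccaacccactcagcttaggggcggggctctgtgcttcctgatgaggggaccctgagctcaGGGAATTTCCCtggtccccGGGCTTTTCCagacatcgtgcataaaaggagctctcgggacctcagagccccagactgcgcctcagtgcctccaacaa
Saa3 held 4 C/EBP type matches and no match to the other motifs. Mmp3 held 3 C/EBP type matches and 1 AP-1 type match, Il1b 1 C/EBP type match, and Cxcl2 3 NF-kB type matches and 1 C/EBP type match. Such matches are common: of 27025 genes with a window of this length, 45.4% held the NF-kB type motif, 6.87% the AP-1 type and 36.9% the C/EBP type. Among tested genes the shares were 61.5%, 4.96% and 29.0%, and among the genes called as rising along the score, described below, they were 60.8%, 7.44% and 33.3%. The genes called as falling had 70.5%, 6.41% and 33.3%. These are matches of letters and show no binding.

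The score spread over more than 5 log2 units in WT arthritis and over about 1 unit in Sema3b-/- arthritis. WT arthritis replicates 1 to 5 had scores of 7.35, 5.19, 10.50, 10.48 and 9.53, and Sema3b-/- arthritis replicates 1 to 5 had 9.87, 10.37, 9.86, 9.38 and 10.40. WT control scores ran from 4.90 to 5.29 and Sema3b-/- control scores from 3.78 to 4.74. WT arthritis replicate 2 therefore lay inside the WT control range although its labels say arthritis, and replicate 1 lay between the control and the other arthritis libraries. Replicate 2 was within the WT control range for 4 of the 5 score genes. The exception was Il1b, with 45.8 normalized counts against 11.1 to 35.4 in the controls.

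Single score genes varied as widely as the score. Saa3 had 446.5, 12.6, 3575, 3991 and 1645 normalized counts in WT arthritis replicates 1 to 5, and 2568, 3700, 1624, 784.2 and 2858 in Sema3b-/- arthritis replicates 1 to 5. In WT controls it had 20.7 ± 12.4 (SD, n = 4). The control groups could differ in level: Mmp3 had 121.8 ± 27.9 in WT and 54.6 ± 13.0 in Sema3b-/- controls (SD, n = 4 each). Control ranges given below for single genes are mostly those of WT controls. For Sema3b-/- arthritis libraries these are controls of the other genotype. Il1b had 35.5, 45.8, 801.4, 937.3 and 339.1 normalized counts in WT arthritis replicates 1 to 5, and 281.4 to 555.7 in Sema3b-/- arthritis. Il1b was thus just above the control range in both low WT libraries, while Saa3 was raised in replicate 1 and at control level in replicate 2. The plot of the score and its genes shows the same 3 libraries, replicates 2, 1 and 5, as the lowest of WT arthritis for Mmp3 and Cxcl5.

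**Figure D1:**
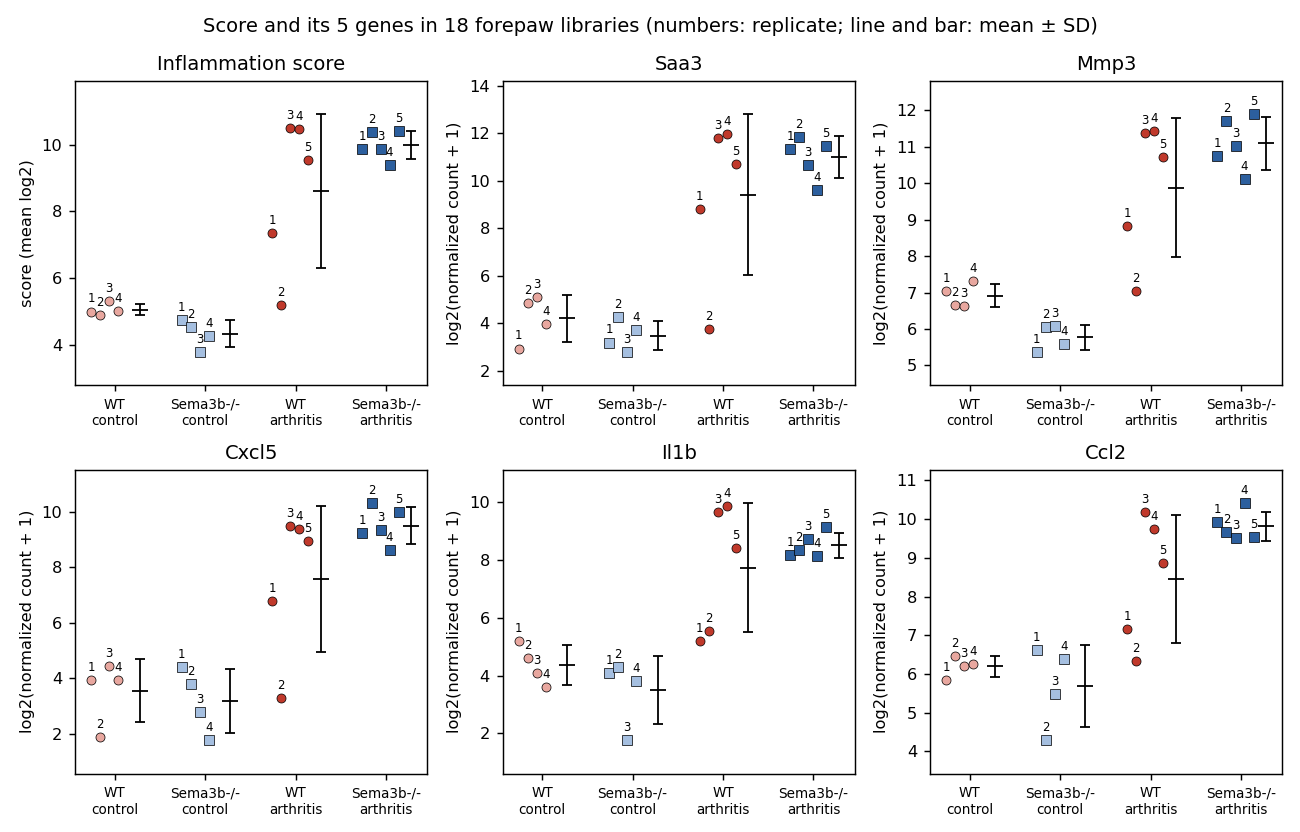
Inflammation score and log2(normalized count + 1) of its 5 genes in 18 libraries by group; each point is a library, numbered by replicate, and the line with bars is the group mean ± SD. WT arthritis replicate 2, at a score of 5.19, sits among the WT controls (4.90 to 5.29), and the 5 Sema3b-/- arthritis libraries lie between 9.38 and 10.40.

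Sema3b itself had at least 23.7 normalized counts in each WT arthritis library and at most 3.49 in each of the Sema3b-/- arthritis libraries, so every library matched its genotype label. The 10 libraries held 5468160 to 19464892 reads, with the most in WT arthritis replicate 2. The limit set by a count of 0, 3 reads, came to 1.31 to 4.44 normalized counts in these libraries. Xist and Y-linked genes marked 4 of 5 WT and 1 of 5 Sema3b-/- arthritis libraries as male. The female WT arthritis library was replicate 1. All 4 WT controls were marked female, and of the Sema3b-/- controls 2 were male and 2 female. Where male WT arthritis libraries are set beside WT controls, arthritis and sex therefore cannot be told apart. The table's column for Sema3b-/- arthritis replicate 5 carries a control suffix, while its score of 10.40 is far from the Sema3b-/- control range and its title and treatment label say arthritis.

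Along the score, 518 of 13804 genes passed an adjusted p under 0.05 (3.75%), 421 rising (3.05%) and 97 falling (0.703%). The median slope of all tested genes was -0.00, which the scaling by size factors largely fixes. The gradient is above all a WT gradient: the WT libraries carried 96.7% of the sum of squares of the centred score and the Sema3b-/- libraries 3.30%, with 53.4% in WT arthritis replicate 2 alone. Without replicate 2 the fit called 610 genes, but only 221 of the 518 were among them. Without both low WT libraries (replicates 1 and 2) it called 96, 85 rising (0.616%) and 11 falling (0.0797%). Of the 518 genes, 505 kept the sign of their slope without those 2 libraries and 49 were still called. The calls also leaned on the upper end: 34 genes were called without WT arthritis replicate 3 and 44 without replicate 4.

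Muscle and mitochondrial shares were lower at higher scores, a relation that did not pass after adjustment (values below), and calls depended on whether they were in the fit. With the mean level of the skeletal muscle list as a term 1 gene, Cxcl2, was still called, and with the mitochondrial share as a term 5 genes were. All 518 slopes kept their sign in both fits. With sex as a term 147 genes were called. The part of muscle, mitochondrial RNA and sex in the gradient was not tested beyond these fits. Of the 67 called genes described below, 9 stayed called whichever library was left out: Cxcl2, Ccl4, Clec4d, Clec4n, Ms4a7, Cd14, Cd68, Socs3 and Pdpn. The other 58 lost the call without at least 1 library, with highest adjusted p-values of 0.0533 to 0.374. Of these, 55 lost it without WT arthritis replicate 3, 55 without replicate 4 and 31 without replicate 2.

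Chemokines had the highest median slope of the 34 lists. The score genes Cxcl5 and Ccl2 are themselves chemokines, so the rank of this list is not independent of how the score was built. The lists of acute-phase genes, matrix proteases and cytokines likewise hold relatives of the score genes Saa3, Mmp3 and Il1b. All 17 chemokines tested had positive slopes, with a median of 0.62, and 8 rose past the threshold. For this list and those below, the share over all genes tested in the 10 libraries was 3.05% rising and 0.703% falling. Cxcl2, which encodes a ligand of the neutrophil receptor Cxcr2, had 10.3, 0.436, 303.5, 421.0 and 112.8 normalized counts in WT arthritis replicates 1 to 5. The 0.436 of replicate 2 is a single read. The Sema3b-/- arthritis libraries 1 to 5 had 231.9, 135.5, 133.7, 183.8 and 176.4. WT controls had 0 to 8.44 and Sema3b-/- controls 0 to 3.56, so WT arthritis replicate 2 was at control level and replicate 1 just above it, while the other 8 libraries were far higher. Its slope was 1.45 log2 units per unit of score (SE 0.12, adjusted p = 0.0011), the lowest p of all genes. Fitted in WT alone within the model with 2 slopes it was 1.51, and in Sema3b-/- it was -0.25, a difference that did not pass the test (adjusted p = 0.661).

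Ccl4, a chemokine made by activated macrophages, had 28.1, 10.5, 157.5, 432.1 and 102.7 normalized counts in WT arthritis replicates 1 to 5. Across Sema3b-/- arthritis replicates 1 to 5 it had 81.6, 136.5, 107.5, 95.8 and 152.1, against 9.38 to 21.0 in WT controls. Replicate 2 again fell inside the control range, and replicate 1 was just above it. The slope of Ccl4 was 0.85 (SE 0.09, adjusted p = 0.00385). Ccl3, its neighbour in function, rose by 0.66 (adjusted p = 0.0127). The monocyte attractants Ccl7 and Ccl8 rose by 0.79 (adjusted p = 0.0136) and 0.62 (adjusted p = 0.0327). With 1 library left out the highest adjusted p was 0.0703 for Ccl3 (WT arthritis replicate 4), 0.107 for Ccl7 (WT arthritis replicate 2) and 0.104 for Ccl8 (WT arthritis replicate 4).

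The constitutive stromal chemokines Cxcl12 and Cxcl14 had slopes below the chemokine median of 0.62, and neither was called. Cxcl12 had 2293, 3155, 3579, 3619 and 6292 normalized counts in WT arthritis replicates 1 to 5 and 2491 to 3129 in Sema3b-/- arthritis. Its slope of 0.09 (SE 0.07, adjusted p = 0.455) and the slope of 0.22 of Cxcl14 (SE 0.08, adjusted p = 0.152) did not pass. Without the 2 low WT libraries the median slope of the chemokine list was 0.19 and none of its members was called.

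Of 15 neutrophil markers tested, 4 rose and none fell, 8 slopes were positive, and the median was 0.06. The 4 were Clec4d (0.72, adjusted p = 0.008) and Clec4e (0.72, adjusted p = 0.0417), C-type lectin receptors that activate myeloid cells, Trem1 (0.70, adjusted p = 0.0178), a receptor that amplifies inflammatory signals, and Csf3r (0.45, adjusted p = 0.0278), the receptor of granulocyte colony-stimulating factor. Macrophages also use the lectins and Trem1. Clec4e had 23.7, 39.3, 298.9, 511.2 and 188.9 normalized counts in WT arthritis replicates 1 to 5 and 208.6, 315.6, 101.5, 211.7 and 295.9 in Sema3b-/- arthritis replicates 1 to 5, against 6.63 to 26.3 in WT controls. Its 2 lowest values were in the 2 low WT libraries. Leaving out 1 library at a time gave a highest adjusted p of 0.129 for Clec4e (WT arthritis replicate 3), 0.0734 for Trem1 and 0.108 for Csf3r (both WT arthritis replicate 4). Without WT arthritis replicate 2 the slopes of Clec4e and Trem1 were larger, 1.22 (adjusted p = 0.00963) and 1.16 (adjusted p = 0.00559). A further lectin of the cluster, Clec4n, which encodes dectin-2, rose by 0.75 (SE 0.09, adjusted p = 0.00662).

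The other 11, granule genes and other markers such as Cxcr2 (0.28, adjusted p = 0.216) and S100a8 (-0.01, adjusted p = 0.991), did not pass. Ngp, which encodes neutrophilic granule protein, had 519.0, 8545, 3357, 948.4 and 4520 normalized counts in WT arthritis replicates 1 to 5. Replicates 1 to 5 of Sema3b-/- arthritis had 6518, 1971, 598.0, 4830 and 269.5, against 1575 to 2911 in WT controls. The highest value of all 10 was in WT arthritis replicate 2, the library with the lowest score, and the lowest in Sema3b-/- arthritis replicate 5, near the top of the score. The slope of Ngp was -0.28 (SE 0.39, adjusted p = 0.705), that of Camp, which encodes cathelicidin, -0.32 (SE 0.31, adjusted p = 0.583), and that of S100a9, a subunit of calprotectin, -0.04 (SE 0.25, adjusted p = 0.95). The mean log2 level of the neutrophil list in WT arthritis replicate 2 was 1.88 above the WT control mean, close to the 1.80 to 2.10 of replicates 3, 4 and 5. In WT arthritis replicate 1 it was -0.08 from that mean. Against the Sema3b-/- control mean, Sema3b-/- arthritis replicates 1 to 5 were at 1.71, 1.52, 0.08, 1.31 and 0.30, so the list was not raised in every arthritis library. WT arthritis replicate 2 was not like a control in this list, although its score was.

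In the same library the erythroid list was 1.31 above the WT control mean, while in WT arthritis replicate 4 it stood at -2.62. Over the 10 libraries erythroid and B-cell markers together made up 0.102% to 1.12% of normalized counts. The part of marrow in the neutrophil values was not tested. Of 6 erythroid genes tested, all with negative slopes, 1 fell: Tfrc, the transferrin receptor, by 0.28 on the log2 scale per unit of score (adjusted p = 0.0238), with a highest adjusted p of 0.11 when WT arthritis replicate 2 was left out. None of the 8 B and plasma cell genes tested passed (median slope -0.13).

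**Figure D2:**
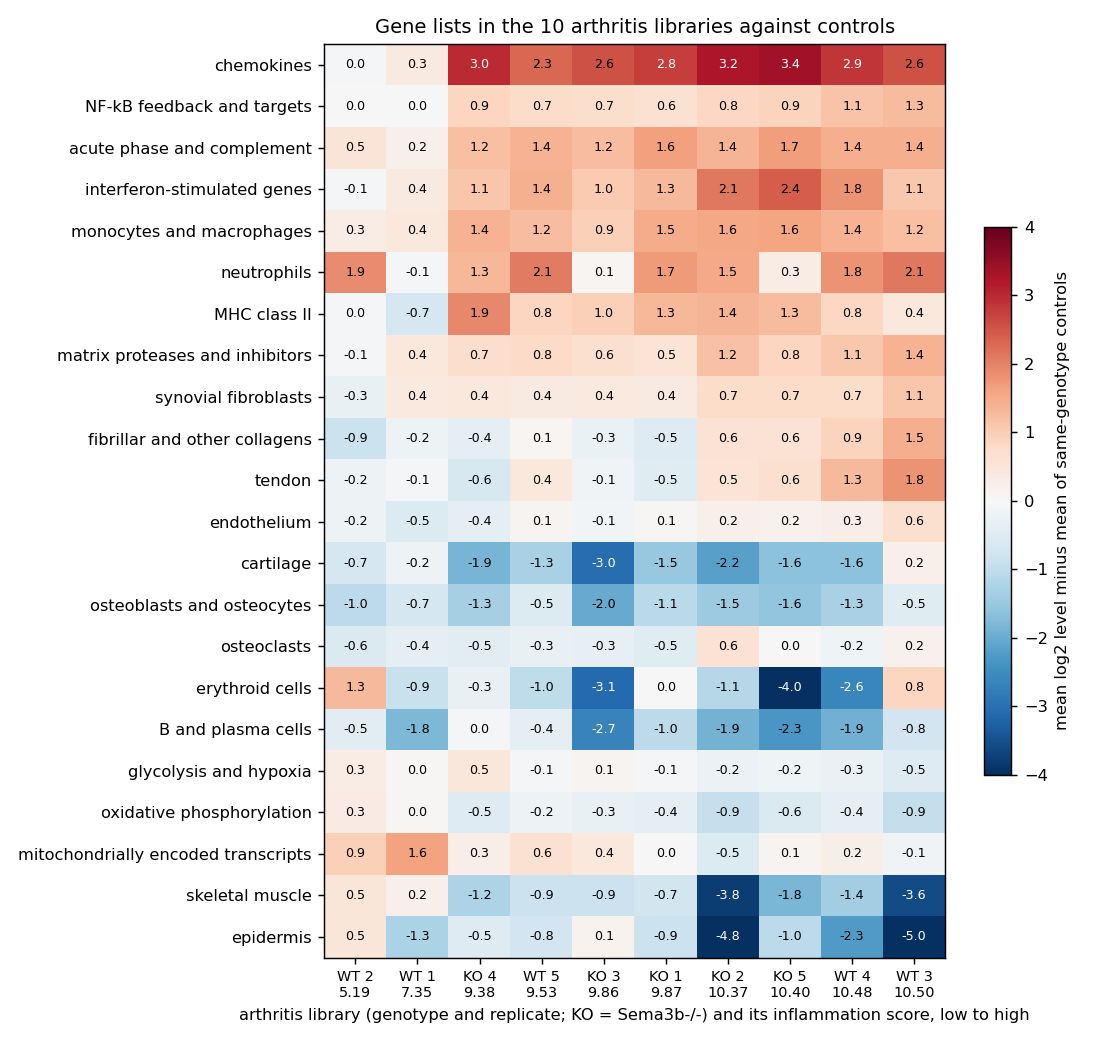
Mean log2 level of 22 gene lists in each of the 10 arthritis libraries, minus the mean of the controls of the same genotype; columns run from the lowest to the highest inflammation score and KO stands for Sema3b-/-. Chemokines are at -0.0 and 0.3 in the 2 low WT libraries and at 2.3 or more in the other 8, while neutrophil markers are at 1.9 in WT arthritis replicate 2, the lowest by score.

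Of 16 markers of monocytes and macrophages tested, 9 rose and none fell, with a median slope of 0.20. Cd14, the co-receptor for bacterial lipopolysaccharide, had 495.3, 268.2, 1880, 1451 and 827.1 normalized counts in WT arthritis replicates 1 to 5 and 1297, 1392, 857.4, 992.4 and 1045 in Sema3b-/- arthritis replicates 1 to 5. WT controls had 280.5 to 350.1, so of the WT arthritis libraries only replicate 2 reached down to their level. The slope of Cd14 was 0.48 (SE 0.05, adjusted p = 0.00532). Cd68, a lysosomal protein of macrophages, rose by 0.36 (adjusted p = 0.00952) and Fcgr1, the high-affinity IgG receptor, by 0.43 (adjusted p = 0.0239). C1qa and C1qb, chains of complement C1q made by tissue macrophages, rose by 0.20 (adjusted p = 0.0479) and 0.27 (adjusted p = 0.022), and C1qc at 0.19 missed the threshold (adjusted p = 0.051; 0.0486 with a pseudocount of 5).

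Ms4a7, a membrane protein of macrophages that is not in the list, was among the 10 steepest rising genes of at least median level. It had 235.1, 119.9, 970.4, 1325 and 846.1 normalized counts in WT arthritis replicates 1 to 5 and 436.7, 907.8, 450.3, 479.2 and 1322 in Sema3b-/- arthritis replicates 1 to 5. WT controls had 65.2 to 134.5, a range that again takes in replicate 2 only. Its slope was 0.66 (SE 0.08, adjusted p = 0.00651). Without the 2 low WT libraries the median slope of the macrophage list was 0.14, with 11 of 16 positive and none called. When libraries were left out singly, the highest adjusted p was 0.209 for C1qa and 0.101 for C1qb (both WT arthritis replicate 2) and 0.0959 for Fcgr1 (WT arthritis replicate 4).

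Of 8 MHC class II genes of antigen presentation tested 1 rose, against 3.05% of all genes tested. It was Ctss, which encodes cathepsin S, a protease that trims the invariant chain. Ctss had 1931, 1104, 4125, 5709 and 3523 normalized counts in WT arthritis replicates 1 to 5 and 2775 to 5642 in Sema3b-/- arthritis, against 960.4 to 1234 in WT controls. Its slope was 0.40 (adjusted p = 0.0153; 0.0896 without WT arthritis replicate 2). The class II chain H2-Aa had 3368, 5445, 8239, 10190 and 10138 normalized counts in WT arthritis replicates 1 to 5 and 8814 to 19112 in Sema3b-/- arthritis, with a slope of 0.19 that did not pass (SE 0.10, adjusted p = 0.277). The list's median slope was 0.17, and it was -0.39 without the 2 low WT libraries, where 1 of 8 slopes was positive. Of 8 T and NK cell genes tested 1 rose, the granule protease Gzmb, by 0.64 (adjusted p = 0.0417; 0.149 without WT arthritis replicate 4).

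Genes listed as targets or feedback genes of NF-kB, the transcription factor that links cytokine receptors to inflammatory genes, rose in part. Whether NF-kB acts on the listed genes here was not tested. Of 15 tested, 5 rose and 14 had positive slopes, with a median of 0.24. Socs3, an inhibitor of cytokine receptor signalling, had 164.1, 98.6, 695.6, 440.6 and 267.5 normalized counts in WT arthritis replicates 1 to 5 and 285.2 to 358.4 in Sema3b-/- arthritis, against 80.1 to 93.8 in WT controls. Every arthritis library was above the WT controls, replicate 2 by the least. Its slope was 0.44 (SE 0.06, adjusted p = 0.0091). Nfkbie, an inhibitor of NF-kB, rose by 0.46 (adjusted p = 0.0237), Relb, a subunit of NF-kB, by 0.35 (adjusted p = 0.0306) and Birc3, an inhibitor of apoptosis, by 0.27 (adjusted p = 0.0349). With 1 library left out the highest adjusted p was 0.099 for Nfkbie and 0.117 for Relb (both WT arthritis replicate 4) and 0.242 for Birc3 (WT arthritis replicate 2). Without WT arthritis replicate 2 the slope of Relb was 0.57 (adjusted p = 0.0172).

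Of 16 acute-phase and complement genes tested, 4 rose, and the median slope was 0.21. Saa1, a serum amyloid whose reads may be shared with its close copy Saa2, had 2.96, 0.872, 32.2, 33.2 and 19.0 normalized counts in WT arthritis replicates 1 to 5 and 9.58 to 42.8 in Sema3b-/- arthritis. Its level in the 2 low WT libraries was under the limit of 3 reads, and its slope was 0.84 (SE 0.12, adjusted p = 0.012). That slope depends on the pseudocount, at 0.92 with 0.5 and 0.55 with 5 in place of 1. Ptx3, a soluble pattern receptor, rose by 0.46 (adjusted p = 0.0235) and Cfb, complement factor B, by 0.40 (adjusted p = 0.0331). C1s, a protease of the classical complement pathway, rose by 0.23 (adjusted p = 0.0389). Leaving out 1 library at a time gave a highest adjusted p of 0.0618 for Saa1 and 0.116 for Cfb (both WT arthritis replicate 4), 0.157 for Ptx3 (WT arthritis replicate 2) and 0.128 for C1s (WT arthritis replicate 3). The slope of Cfb was 0.67 without WT arthritis replicate 2 (adjusted p = 0.00963).

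All 15 interferon-stimulated genes tested had positive slopes, with a median of 0.31, and 3 rose. Ifit1, which binds viral RNA, had 317.9, 105.5, 803.7, 836.1 and 600.8 normalized counts in WT arthritis replicates 1 to 5. Among Sema3b-/- arthritis libraries, replicates 1 to 5 had 383.5, 887.0, 415.1, 311.9 and 1307, against 148.4 to 216.7 in WT controls. WT arthritis replicate 2 was below the controls, and in Sema3b-/- arthritis replicates 2 and 5, the highest by score, stood above the other 3. The slope was 0.58 (SE 0.10, adjusted p = 0.0184), 0.54 in WT and 1.94 in Sema3b-/-, a difference that did not pass (adjusted p = 0.661). Zbp1, a sensor of nucleic acid, rose by 0.54 (adjusted p = 0.0224) and Bst2, tetherin, by 0.35 (adjusted p = 0.0262). When libraries were left out singly, the highest adjusted p was 0.11 for Ifit1 (WT arthritis replicate 2), 0.089 for Zbp1 and 0.104 for Bst2 (both WT arthritis replicate 4).

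Of 9 proinflammatory cytokine genes tested 1 rose: Tnfsf11, which encodes RANKL, the factor that drives osteoclast formation. It had 16.3, 6.54, 59.8, 39.1 and 27.9 normalized counts in WT arthritis replicates 1 to 5 and 15.5 to 39.8 in Sema3b-/- arthritis, against 7.74 to 12.8 in WT controls. The highest value was in WT arthritis replicate 3 and the lowest in replicate 2. Its slope was 0.51 (SE 0.09, adjusted p = 0.0217; 0.0955 without WT arthritis replicate 3). None of the 10 osteoclast genes tested passed, although 9 slopes were positive (median 0.12).

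Of 17 matrix proteases and inhibitors tested, 6 rose, none fell and 11 did not pass (median slope 0.22, 14 positive). Timp1, an inhibitor of metalloproteinases, had 2105, 295.7, 3808, 4165 and 2512 normalized counts in WT arthritis replicates 1 to 5. The Sema3b-/- arthritis libraries 1 to 5 had 5232, 11315, 4690, 3757 and 6864, against 491.8 to 708.3 in WT controls. WT arthritis replicate 2 was below every WT control and all other arthritis libraries were above them. Its slope was 0.65 (SE 0.10, adjusted p = 0.0153), and without replicate 2 it was 0.39 (adjusted p = 0.136). The membrane protease Mmp14, which activates pro-Mmp2, rose by 0.49 (adjusted p = 0.0238), the gelatinase Mmp2 by 0.44 (adjusted p = 0.0421) and Mmp19, a metalloproteinase of myeloid and stromal cells, by 0.58 (adjusted p = 0.0217). The aggrecan-cleaving enzyme Adamts1 rose by 0.30 (adjusted p = 0.0178) and Timp2 by 0.21 (adjusted p = 0.0422). The highest adjusted p with 1 library left out was 0.0754 to 0.142 for these 5, each without WT arthritis replicate 3 or 4. For Mmp19 the slope was 0.95 without WT arthritis replicate 2 (adjusted p = 0.00816).

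Markers of synovial fibroblasts rose in 6 of 16 tested, with a median slope of 0.21, 14 slopes positive and 2 negative. Among those that did not pass were Prg4 (0.01, adjusted p = 0.975), Cd55 (-0.09, adjusted p = 0.611) and Clic5 (-0.30, adjusted p = 0.435). Pdpn, podoplanin, is a marker of synovial fibroblasts in this list. It had 433.2, 185.4, 1085, 1181 and 823.9 normalized counts in WT arthritis replicates 1 to 5. Across Sema3b-/- arthritis replicates 1 to 5 it had 1064, 1558, 814.1, 696.2 and 1124, against 214.8 to 295.9 in WT controls. Only WT arthritis replicate 2 was below the WT controls, and the other 9 libraries were above them. Its slope was 0.50 (SE 0.05, adjusted p = 0.00201), 0.48 in WT and 0.92 in Sema3b-/-, and with 1 library left out the highest adjusted p was 0.0159. Tnfaip6, a hyaluronan-binding protein induced by cytokines, rose by 0.83 (adjusted p = 0.0192), and Has1, a hyaluronan synthase, by 0.40 (adjusted p = 0.033). Fap, Cdh11 and Thy1, surface proteins of synovial fibroblasts, rose by 0.27 (adjusted p = 0.0238), 0.32 (adjusted p = 0.0349) and 0.23 (adjusted p = 0.0469). The highest adjusted p of these 5 with 1 library left out ran from 0.0797 (Tnfaip6, without WT arthritis replicate 4) to 0.22 (Has1, without WT arthritis replicate 2). For Thy1 the slope was 0.41 without WT arthritis replicate 2 (adjusted p = 0.0213).

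All 14 tested members of the collagen and matrix list had positive slopes, with a median of 0.37, and 7 rose. Col3a1, a fibrillar collagen of loose and healing tissue, had 23043, 20176, 139729, 110080 and 54285 normalized counts in WT arthritis replicates 1 to 5. Replicates 1 to 5 of Sema3b-/- arthritis had 40157, 91870, 48805, 36615 and 89037. Of the 2 low WT libraries, replicate 1 was inside the WT control range of 20785 to 29074 and replicate 2 just below it, and in each genotype the libraries with the highest scores had the most Col3a1. Its slope was 0.55 (SE 0.09, adjusted p = 0.02), and 0.83 without WT arthritis replicate 2 (adjusted p = 0.00816). Col5a2 and Col14a1, collagens that set fibril diameter and spacing, rose by 0.49 (adjusted p = 0.0153) and 0.40 (adjusted p = 0.0108). Lox, the enzyme that cross-links collagen, rose by 0.42 (adjusted p = 0.0253). With 1 library left out the highest adjusted p was 0.0789 for Col3a1 and 0.0722 for Col5a2 (both WT arthritis replicate 4), 0.0533 for Col14a1 (WT arthritis replicate 3) and 0.132 for Lox (WT arthritis replicate 2).

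The main collagens of bone and tendon, Col1a1 and Col1a2, had slopes of 0.39 (SE 0.11, adjusted p = 0.101) and 0.35 (SE 0.11, adjusted p = 0.132) that did not pass. Col1a1 had 28788, 15235, 83484, 46275 and 28213 normalized counts in WT arthritis replicates 1 to 5, against 65422 to 75434 in WT controls. Only WT arthritis replicate 3 exceeded the controls. Without the 2 low WT libraries the slope of Col1a2 was 1.52 and passed (adjusted p = 0.0204), and that of Col1a1 was 1.43 (adjusted p = 0.0843). Sema3b-/- controls ranged from 25622 to 319299, a wider range than in any arthritis group.

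Matrix genes outside the list were among the steepest rising of the called genes of at least median level. Cthrc1, a secreted protein of activated fibroblasts, had 261.7, 166.6, 4601, 2938 and 797.3 normalized counts in WT arthritis replicates 1 to 5. Among Sema3b-/- arthritis libraries, replicates 1 to 5 had 426.3, 1751, 651.3, 369.4 and 2101, against 212.1 to 255.8 in WT controls and 111.5 to 1109 in Sema3b-/- controls. The 3 highest WT values belonged to replicates 3, 4 and 5, and the 2 highest Sema3b-/- values to replicates 2 and 5, while 3 of the 5 Sema3b-/- arthritis libraries were inside the range of their controls. Its slope was 0.91 (SE 0.17, adjusted p = 0.0327; 0.111 without WT arthritis replicate 3). Sfrp2, a secreted Wnt modulator of fibroblasts, rose by 0.81 (adjusted p = 0.0262; 0.105 without WT arthritis replicate 3). Mfap4, a microfibril protein, rose by 0.69 (adjusted p = 0.0178; 0.0738 without WT arthritis replicate 4). Among 7 tendon genes tested, all with positive slopes, 2 rose: Thbs4, a thrombospondin of tendon matrix, by 0.47 (adjusted p = 0.0221; 0.093 without WT arthritis replicate 3) and Scx, a transcription factor of tendon cells, by 0.34 (adjusted p = 0.0495; 0.189 without WT arthritis replicate 3, and a slope of 0.54 without WT arthritis replicate 2).

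Matrix genes also varied among the 8 libraries with higher scores. Without the 2 low WT libraries the remaining 8 had scores from 9.38 to 10.50, with 46.1% of the sum of squares in WT and 53.9% in Sema3b-/-. Over these 8 the median slope of the collagen list was 1.25, with 14 of 14 positive and 8 called, against 0.616% of all genes called as rising. The tendon list had a median of 1.13 with 2 called, and the matrix proteases 0.56 with 2 called. Cthrc1 had a slope of 2.43 (adjusted p = 0.023), Col3a1 1.33 (adjusted p = 0.0204), Col5a2 1.28 (adjusted p = 0.0204), Lox 1.22 (adjusted p = 0.047) and Mmp14 1.28 (adjusted p = 0.0482). Over the same 8 libraries Cxcl2 had a slope of 0.66 (adjusted p = 0.523) and Ccl7 0.19 (adjusted p = 0.895), but the myeloid lectin Clec4n had 1.46 and passed (adjusted p = 0.0204), and Clec4d had 1.42 (adjusted p = 0.0511) and Ccl4 0.99 (adjusted p = 0.308). The interferon list had a median of 0.82 with 14 of 15 positive and none called. Muscle and epidermis moved the other way over these 8, with medians of -1.84 (0 of 18 positive) and -2.90 (0 of 13 positive), none called, and their shares were lowest in WT arthritis replicate 3 and Sema3b-/- arthritis replicate 2. The part of these tissues in the matrix slopes was not tested. The difference in slope between gene lists was not tested.

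**Figure D3:**
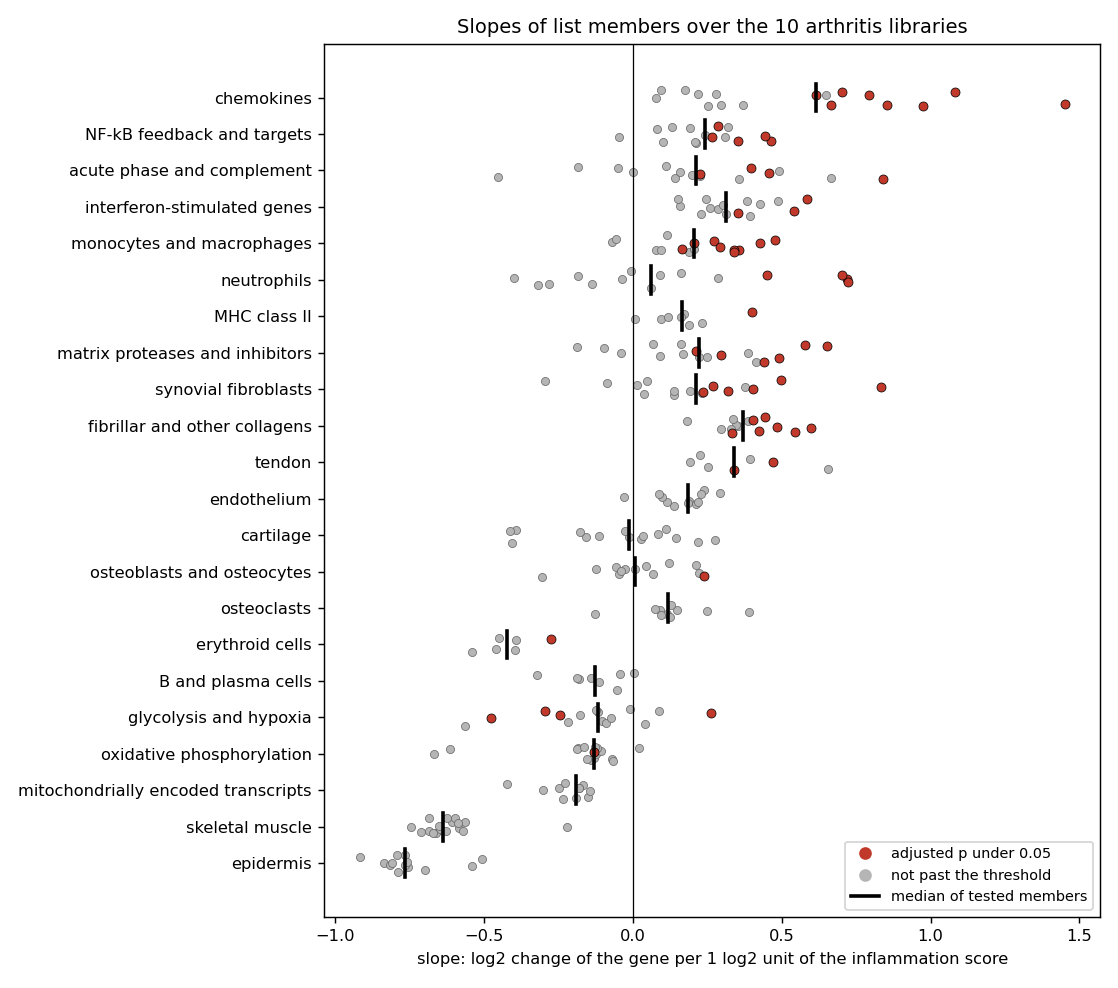
Slope of each tested member of 22 gene lists on the inflammation score over the 10 arthritis libraries, in log2 units per log2 unit of score; red points passed an adjusted p under 0.05 and black bars are list medians. The chemokine median is 0.62 and the collagen median 0.37, while skeletal muscle (-0.64) and epidermis (-0.77) lie below 0 with no member called.

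Bone and cartilage showed no common gradient. Of 15 cartilage genes tested none passed (median slope -0.01, 7 positive), and of 13 osteoblast and osteocyte genes 1 rose. That gene, Spp1, encodes osteopontin, which macrophages and fibroblasts also make. It had 2948, 2565, 6495, 4707 and 4940 normalized counts in WT arthritis replicates 1 to 5 and 3398 to 6140 in Sema3b-/- arthritis, against 2758 to 3092 in WT controls. Its slope was 0.24 (SE 0.05, adjusted p = 0.0323; 0.129 without WT arthritis replicate 3). None of 12 endothelial genes was called, although 11 slopes were positive (median 0.19).

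Skeletal muscle and skin transcripts sloped downward along the score without passing the test gene by gene. All 18 skeletal muscle genes tested had negative slopes (median -0.64), 15 with an unadjusted p under 0.05 and none with an adjusted p under 0.05. Tnnc2, fast troponin C, had 61865, 59709, 2570, 16048 and 19797 normalized counts in WT arthritis replicates 1 to 5. The Sema3b-/- arthritis libraries 1 to 5 had 22857, 2411, 22654, 15641 and 11855, against 24365 to 36045 in WT controls. The 2 low-score WT libraries were above the WT controls and the other 8 below them, with WT arthritis replicate 3 and Sema3b-/- arthritis replicate 2 lowest. The slope of Tnnc2 was -0.69 (SE 0.26, adjusted p = 0.179). Those of Tnnt3, fast troponin T, Atp2a1, the calcium pump of fast muscle, and Myl1, a myosin light chain, were -0.68 (adjusted p = 0.182), -0.58 (adjusted p = 0.193) and -0.62 (adjusted p = 0.163).

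Epidermal genes were low in the same libraries. All 13 tested had negative slopes (median -0.77) and none was called. Krt2, a keratin of the upper epidermis, had 17700, 72572, 541.5, 8352 and 24976 normalized counts in WT arthritis replicates 1 to 5. Across Sema3b-/- arthritis replicates 1 to 5 it had 30820, 1113, 53761, 29980 and 26078, against 29791 to 52445 in WT controls. WT arthritis replicate 3 and Sema3b-/- arthritis replicate 2 were again lowest. The slope of Krt2 was -0.92 (SE 0.43, adjusted p = 0.247). Krt1 and Krt10, the paired keratins of differentiated epidermis, had -0.79 (SE 0.36, adjusted p = 0.235) and -0.76 (SE 0.36, adjusted p = 0.259), and Krtdap, a secreted differentiation marker, had -0.76 (SE 0.37, adjusted p = 0.269).

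**Figure D4:**
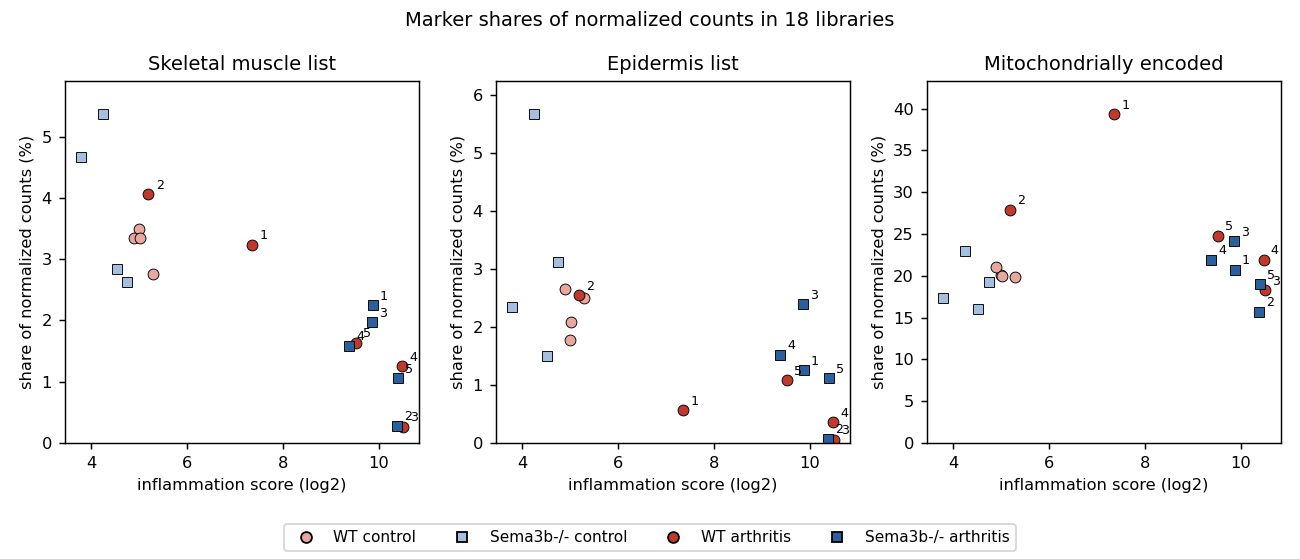
Share of normalized counts (%) of the skeletal muscle list, the epidermis list and mitochondrially encoded transcripts against the inflammation score in 18 libraries; numbers are replicates of the arthritis groups. WT arthritis replicate 3 and Sema3b-/- arthritis replicate 2 have 0.269% and 0.283% muscle, and WT arthritis replicate 1 has 39.4% mitochondrial counts.

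As a share of all normalized counts the muscle list took 3.23%, 4.06%, 0.269%, 1.26% and 1.64% in WT arthritis replicates 1 to 5. In Sema3b-/- arthritis replicates 1 to 5 it took 2.25%, 0.283%, 1.97%, 1.59% and 1.06%. Mitochondrially encoded transcripts took 39.4%, 27.9%, 18.3%, 21.9% and 24.8% in WT arthritis replicates 1 to 5 and 15.7% to 24.1% in Sema3b-/- arthritis, so both low-score WT libraries were the richest in them. Centred within genotype, the muscle share had r = -0.69 and rho = -0.87 with the score over 10 libraries (exact permutation within genotype, two-sided, p = 0.0437 and 0.00778, adjusted over 16 tests 0.233 and 0.0622). Without the 2 libraries farthest from the median score r was -0.64. The mitochondrial share had r = -0.62 (exact permutation p = 0.193, adjusted 0.44) and rho = -0.84 (p = 0.00583, adjusted 0.0622), with r = -0.76 without those 2. For the epidermal share r was -0.60 (exact permutation p = 0.0667, adjusted 0.267). None of the 8 library measures, which also covered total reads, genes detected, marrow-like share, title word and sex, passed after adjustment.

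Of 15 genes of glycolysis and hypoxia tested, 3 fell and 1 rose. Aldoa, the muscle aldolase, had 17053, 23921, 3132, 6376 and 9120 normalized counts in WT arthritis replicates 1 to 5. Replicates 1 to 5 of Sema3b-/- arthritis had 10515, 4499, 10209, 9497 and 6538, against 11917 to 14191 in WT controls. The 2 low-score WT libraries were above the WT controls and the other 8 below them, the same placing as for Tnnc2. Its slope was -0.48 (SE 0.09, adjusted p = 0.0252), and with the muscle level as a term it was -0.22. With that term Hk2 had -0.27 and Gapdh -0.18, and none of the 3 was called. Without it, Hk2, hexokinase 2, fell by 0.30 (adjusted p = 0.0144) and Gapdh, a glycolytic enzyme often used as a reference gene, fell by 0.24 (adjusted p = 0.0153). Hif1a, the hypoxia-inducible factor, rose by 0.26 (adjusted p = 0.0421). Leaving out 1 library at a time gave a highest adjusted p of 0.0723 for Aldoa, 0.0703 for Hk2 and 0.0699 for Gapdh (each without WT arthritis replicate 4) and 0.159 for Hif1a (WT arthritis replicate 3).

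Respiratory genes sloped the same way with smaller size. Of 16 nuclear genes of oxidative phosphorylation tested 15 had negative slopes (median -0.13), and 1 fell: Atp5a1, the alpha subunit of ATP synthase, by 0.13 (adjusted p = 0.0417; 0.19 without WT arthritis replicate 2). The muscle subunit of cytochrome oxidase, Cox6a2, had -0.67 (SE 0.26, adjusted p = 0.191). All 11 mitochondrially encoded genes had negative slopes (median -0.19) and none passed. Among them mtCytb, cytochrome b, had 526788, 391925, 167384, 235172 and 291880 normalized counts in WT arthritis replicates 1 to 5 and 126815 to 269397 in Sema3b-/- arthritis, with a slope of -0.23 (SE 0.07, adjusted p = 0.12). Without WT arthritis replicate 2 its slope was -0.46 and passed (adjusted p = 0.0282).

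The steepest falling genes of at least median level included Abra and Nexn, further genes of striated muscle, and Ppp1r3c. Abra, an actin-binding activator of serum response factor in muscle, had 260.2, 399.1, 26.4, 63.8 and 65.3 normalized counts in WT arthritis replicates 1 to 5. Among Sema3b-/- arthritis libraries, replicates 1 to 5 had 114.0, 27.5, 98.5, 109.8 and 32.0, against 90.2 to 191.0 in WT controls. The 2 low-score WT libraries were the highest and above the WT controls. Its slope was -0.70 (SE 0.13, adjusted p = 0.0235; 0.0956 without WT arthritis replicate 3). Ppp1r3c, which targets protein phosphatase 1 to glycogen, had 388.9, 1245, 204.7, 227.1 and 206.0 normalized counts in WT arthritis replicates 1 to 5 and 112.6 to 250.9 in Sema3b-/- arthritis, with a slope of -0.47 (SE 0.07, adjusted p = 0.0118). The value of WT arthritis replicate 2 stood far above the rest, and without it the adjusted p was 0.123. Nexn, an actin-binding protein of striated muscle, fell by 0.41 (adjusted p = 0.0462; 0.16 without WT arthritis replicate 3). With the muscle level as a term the slope was -0.37 for Abra, -0.16 for Nexn and -0.56 for Ppp1r3c, none of them called.

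Genes in this group with other roles were Usp13, a deubiquitinase, which fell by 0.53 (adjusted p = 0.0253), and Lrrc20, which fell by 0.50 (adjusted p = 0.0315). Ank1, an ankyrin of the membrane skeleton of red cells and muscle, fell by 0.50 (adjusted p = 0.0417), and Tiam1, an activator of Rac, fell by 0.41 (adjusted p = 0.0385). Sqle, squalene epoxidase of cholesterol synthesis, and Il1f9, which encodes the epithelial cytokine interleukin-36 gamma, each fell by 0.40 (adjusted p = 0.0448 and 0.0417). The highest adjusted p of these 6 with 1 library left out ran from 0.101 for Usp13 (WT arthritis replicate 3) to 0.374 for Sqle (WT arthritis replicate 2). Without that library the slopes were -0.25 for Sqle, -0.77 for Lrrc20 and -0.61 for Tiam1.

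**Figure D5:**
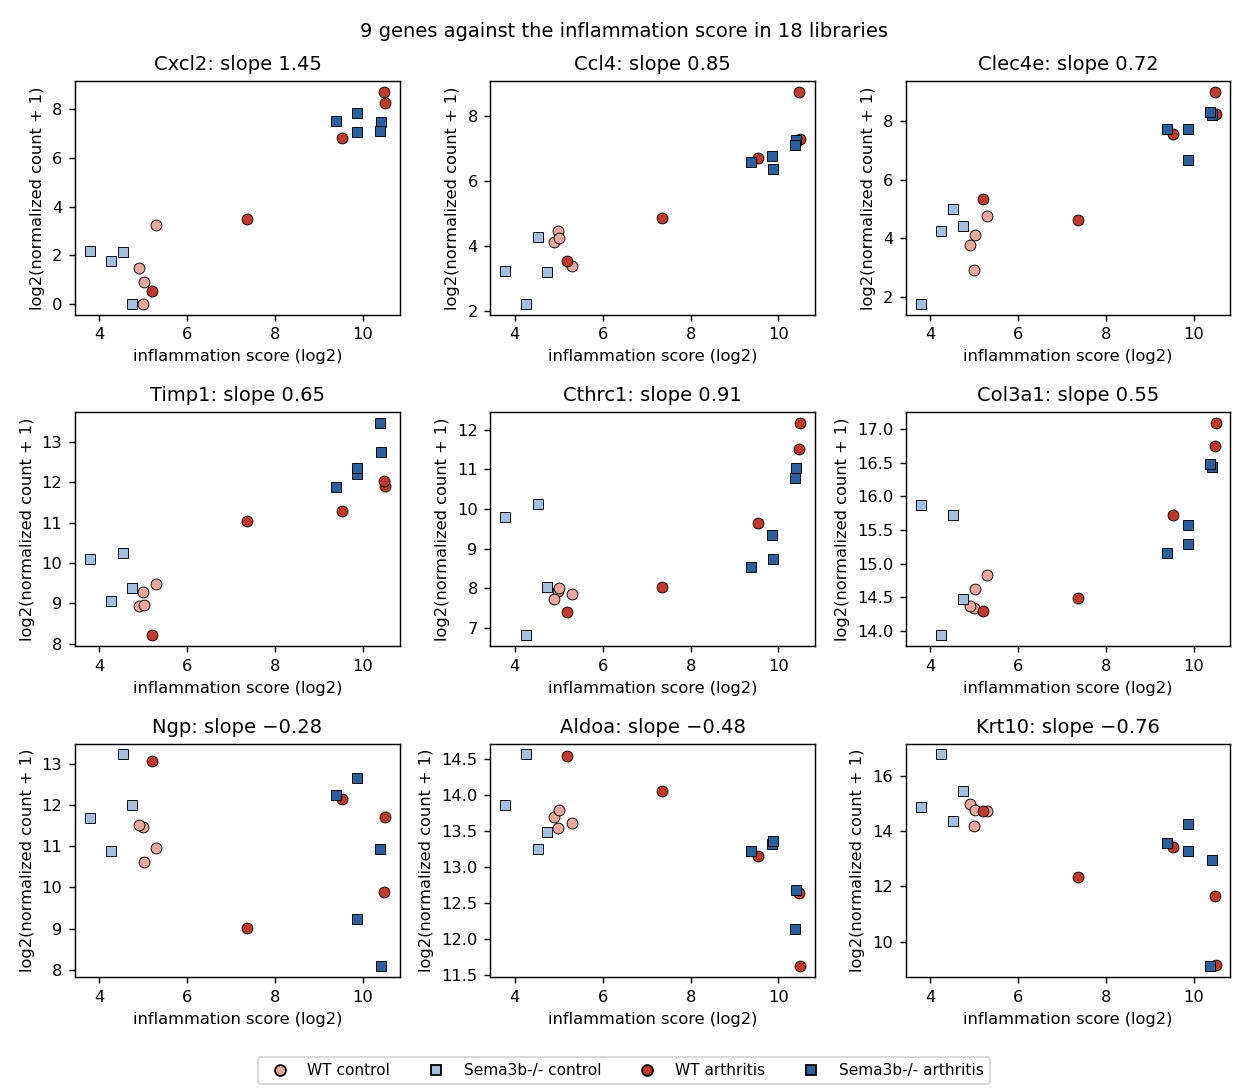
Log2(normalized count + 1) of 9 genes against the inflammation score in 18 libraries, by group; the slope above each panel is over the 10 arthritis libraries. Cxcl2 (1.45) and Ccl4 (0.85) separate the 2 low WT libraries from the rest, Cthrc1 (0.91) and Col3a1 (0.55) also vary among the 8 upper libraries, and Ngp (-0.28) has its highest arthritis value at the lowest score.

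No gene had a slope that differed between genotypes at an adjusted p under 0.05: limma called 0 of 13804 (0%), with 700 at an unadjusted p under 0.05, and edgeR called 0, with 687. The narrow range of Sema3b-/- scores limits this test. The 5 genes with the lowest p, each at an adjusted p of 0.661, were Smoc1, Capn6, Olfml2b, Mgl2 and Ccl11. Smoc1, a secreted calcium-binding matrix protein, had a slope of 0.26 in WT and 2.46 in Sema3b-/-. Ccl11, eotaxin, had -0.09 in WT and -2.91 in Sema3b-/-. These are values, not calls.

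Several cell types showed no called gene along the score. None passed among 9 mast cell genes (median slope 0.03), 12 adipocyte genes (-0.08), 8 pericyte and smooth muscle genes (-0.11), 10 Schwann cell and myelin genes (-0.16), 15 cell cycle genes (0.02), 11 immediate early genes (0.12) and 11 genes of stressed epidermis (-0.73). The median SE of a slope in these lists ran from 0.08 to 0.32 log2 units. With 10 libraries a slope of several SE could miss the threshold, as C1qc did at 0.19 with an SE of 0.05. A list without a call may therefore still hold a gradient larger than its SE.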

How the data were processed

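Total RNA from forepaws was sequenced by CEL-seq, which reads each transcript near its 3' end, per the labels' protocols. Reads were aligned with BWA to mm10 and analysed with DESeq2 1.32, per the submitters' processing notes. For the counting tool, the annotation and any use of molecular identifiers, the sources used here give nothing. The values deposited by the authors are a signal per gene and library, a read count divided by a size factor; whole reads came back within 0.02 of a read for 100% of values. The design planned edgeR for raw counts, and since the deposited file holds normalized counts its planned replacement, limma-trend (limma 3.58.1, R 4.3.3, robust empirical Bayes), was the main test, on log2 of the value plus 1. The model had a mean for each genotype and the centred score, with 7 residual degrees of freedom. A gene was tested if it had at least 10 in at least 4 of 18 libraries, spike-ins and the 5 score genes aside, and called at a Benjamini-Hochberg adjusted p under 0.05. A test of the difference of slopes added a product term. edgeR 4.0.16 and DESeq2 1.42.0 on the recovered reads were alternatives, among 34 tried. The test was tried on simulated data first.

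The members, the score and the gene lists were chosen with earlier results of these data known. Named genes are the score genes, Sema3b, the 10 steepest in each direction among called genes of at least median level with the same sign in both genotypes, and, from each list, members of highest level and called members of lowest p; of these 189 genes the text gives a part. Of 438 list entries 428 are in the table, some under older symbols (Igj, Emr1, Sfpi1, C1s, Lect1, Beta-s), and 26 symbols turned to dates were restored. All 18 columns were matched to samples by the animal number in their names. Each title holds its own number, but the labels do not say that each library is from a separate mouse, so a p-value reflects only how these libraries vary, which may be partly technical. Pairs of libraries within a group of arthritis samples differed by more than counting noise (chi-square per degree of freedom at least 14.1 in 20 pairs). Promoter windows are from RefSeq (GRCm38.p6) and gene coordinates from GENCODE on mm10. Reads from close copies and antisense genes were not separated.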

Additional observations from a re-analysis of the deposited data

Results flagged for a closer look

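In 196 checks of single values within the WT or Sema3b-/- arthritis libraries, 7 had a lowest or highest library whose gap to the next exceeded 0.71 of the range of its 5 libraries. Chance alone flags about 1 check in 20. Of the 7, 4 were low values in Sema3b-/- arthritis replicate 2, on the scale of log2(normalized count + 1): Krt2 at 10.12, with the next library at 14.67, Krt10 at 9.11, Krtdap at 8.86 and Tnnt3 at 11.05. These are genes of skin and muscle, and the muscle share of that library was 0.283%. WT arthritis replicate 2 was lowest for Timp1, at 8.21 with the next at 11.04. In Sema3b-/- arthritis, replicate 3 was lowest for C1qa, at 10.10 with the next at 10.70, and replicate 4 was highest for Ppp1r3c, at 7.98 with the next at 7.06.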

How the results depend on the processing

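The count of 518 genes called along the score stayed within 346 to 761 under other pseudocounts, filters, scalings and score definitions, edgeR (509) and the fit of all 18 libraries (761). DESeq2 called 1383, 60.8% of them rising against 81.3% in the main result. Fewer were called with sex (147), title word (246), muscle level (1) or mitochondrial share (5, chosen after seeing the data) as a term. With log2 total reads as a term 412 were called, and 280 of the 518 were among them. Fewer were also called without the 2 libraries farthest from the median score (96), and in WT alone (60, chosen after seeing the data). Leaving out single libraries gave 34 (WT arthritis replicate 3) to 817 (Sema3b-/- arthritis replicate 2), with 44 when WT arthritis replicate 4 was dropped and 258 when replicate 1 was. Dropping Sema3b-/- arthritis replicate 1, 4 or 5 left 310, 295 or 234. In each of these settings all 518 slopes kept their sign where the gene was tested, except without the 2 farthest libraries, where 505 did. Apart from fewer libraries or an added term, the cause of these changes was not tested.

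Replicate numbers repeat across genotypes, but they did not pair the libraries: the correlation of same-numbered libraries ran from -0.66 to 0.12, 1 of 5 pairs was over 0.1, and 0 of 10 libraries were closest to their own number. With the replicate block 569 genes were called, 251 rising and 318 falling, and 235 of the 518 were among them; in the libraries titled Joint it was 365 rising and 326 falling. With the block the slope of S100a9 was 0.13, and with log2 total reads as a term it was 0.0913.

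Without the 2 farthest libraries slopes turned for Cxcl12 (-0.51), Cxcl14 (-0.41), C1qc (-0.0565) and H2-Aa (-0.38), none of them called, and r of the title word was -0.22. With the muscle level as a term slopes turned positive for Cox6a2 (0.0362), Tnnc2 (0.0108), Tnnt3 (0.00983), Atp2a1 (0.0331), Krt2 (0.16), Krt10 (0.10) and Krtdap (0.17), none of them called. Leaving out single libraries moved S100a9 from -0.20 to 0.58, Ngp from -0.48 to 0.26, r of log2 total reads from -0.77 to 0.19 and r of genes detected from -0.73 to 0.12, the highest each time without WT arthritis replicate 2. The difference of slopes between genotypes had 0 calls in every setting run, with 309 to 805 genes at an unadjusted p under 0.05.

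The number of libraries, with 96.7% of the sum of squares of the score in 5 of them, limits the precision. The part of read depth was not tested beyond the fit with log2 total reads as a term.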
